A study of Mus musculus with 8 samples.

Results

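Retinoid binding proteins and nuclear receptors of the retinoic acid pathway were followed here as 9 genes, *Crabp1*, *Crabp2*, *Rbp4*, *Stra6*, *Rara*, *Rarb*, *Rarg*, *Rxra* and *Rxrb*, chosen by name and matched by gene symbol among the 48526 identifiers of the count table. All 9 passed the filter on low values and were tested with 9744 genes in all. The libraries came from microdissected heart fields of wild-type C57bl6/J male mouse embryos at stage E8.5f, around the start of heart looping. Embryos L29-3, L43-5, L46-8 and L49-3 (4 in all) gave a left and a right library each of polyadenylated RNA, so that the sides were compared within single, unpooled embryos that shared stage, strain, genotype and sex. The heart tube and dorsal tissue had been taken off, and each left or right piece held the region between the headfolds and somite 2.

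Retinoic acid, made from vitamin A, patterns the posterior part of the heart field, the foregut, the hindbrain and the somites of the early embryo. Retinol travels bound to RBP4 and can enter cells through the membrane receptor STRA6, while CRABP1 and CRABP2 bind retinoic acid inside the cell. Retinoic acid acts through the nuclear receptors RARα, RARβ and RARγ, which bind DNA as heterodimers with an RXR at paired half-sites and can raise the transcription of target genes, *Rarb* itself among them.

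*Rarb* is shown here by sequence because it is a receptor gene whose own promoter holds such a paired site. The 250 bases before one start site of *Rarb* lie on the minus strand of chromosome 14 (RefSeq, GRCm38.p6, chr14:16575477-16575726) and read as follows from 5′ to 3′, with the half-sites in capitals.
Rarb: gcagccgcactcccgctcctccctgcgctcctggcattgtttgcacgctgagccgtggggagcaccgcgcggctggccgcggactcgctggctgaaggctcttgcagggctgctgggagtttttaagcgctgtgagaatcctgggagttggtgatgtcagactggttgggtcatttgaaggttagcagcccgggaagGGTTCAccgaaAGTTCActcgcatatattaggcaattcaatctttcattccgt
The half-sites searched were AGGTCA, its variant GGGTCA, and the forms AGTTCA and also GGTTCA, on both strands, as direct repeats separated by 1, 2 or 5 bases. The pair in *Rarb*, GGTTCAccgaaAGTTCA, has a spacer of 5 bases and runs from 53 to 37 bases before the start site, at chr14:16575513-16575529. Such a repeat was present in 32 of 32851 promoters of the same length (0.0974%), counted from 250 bases before to 50 after each start site. RefSeq promoters were matched for 8 of the 9 genes, 18 promoters in all, and none of the other 7 genes held a repeat with any of the 3 spacers. Repeats with spacers of 1 and 2 bases were present in 0.222% and 0.268% of all promoters. These are matches of letters, and binding was not measured. *Crabp2* had no matched promoter.

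Library totals ranged from 1147446 to 3520753 counts, lowest in both libraries of embryo L49-3. Values are given as normalized counts, the reads of a gene divided by the library's DESeq2 size factor, unless a per-length level is named. Embryo L49-3 stood apart before any comparison of sides. Its yolk sac and visceral endoderm markers summed to 37.2 and 38.2 normalized counts, where the remaining 6 libraries held 208 to 1160, and its *Tbx5*, a transcription factor of the posterior heart field, was 20.1 (left) and 19.9 (right), where the others held 90 to 164. Second heart field markers were detected at levels that passed the filter for 11 of 11 genes listed, and summed to 941 to 1430 normalized counts.

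Per length, as RPKM (counts scaled to the library's TMM-adjusted total over the genes tested and divided by exon length), the binding proteins of retinoic acid were the most abundant of the 9 genes. *Crabp1* stood at 284 ± 96.3 (SD over 8 libraries of 4 embryos) and *Crabp2* at 121 ± 51.7, and *Crabp1* was the higher in 8 of 8 libraries although the ranges overlapped. *Rbp4* followed at 21.1 ± 16.1, below *Crabp2* in 8 of 8 libraries with no overlap of their ranges. The receptors lay close together, at 17.4 ± 2.12 for *Rara*, 15.9 ± 2.19 for *Rxra*, 14.6 ± 1.36 for *Rxrb*, 11 ± 1.22 for *Rarg* and 10.8 ± 2.33 for *Rarb*, and the membrane receptor *Stra6* was lowest at 9.03 ± 2.19. From *Rbp4* down, every neighbouring pair in this order overlapped in range, with the higher gene above the next in only 5 to 7 of 8 libraries. The levels depended on the length used. With the longest transcript in place of all exon bases, *Crabp2* stood at 172 and *Crabp1* was above it in 7 of 8 libraries, *Stra6* stood at 17.1, *Rxrb* (22.1) and *Rarb* (18.3) stood above *Rxra* (17.7), and *Rarg* (15.8) was lowest.

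**Figure D1:**
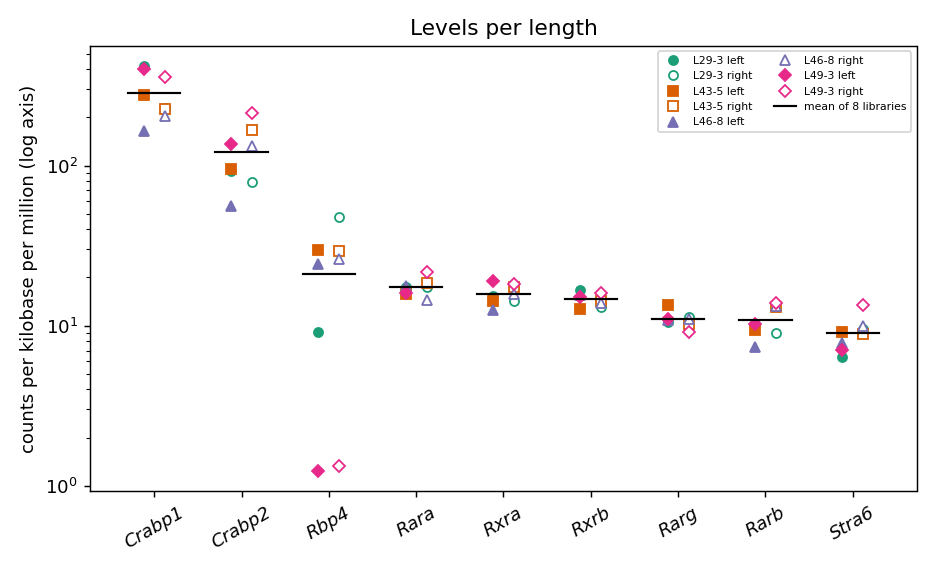
Level of each gene in RPKM (counts per kilobase of exon, scaled to the library's TMM-adjusted total), on a log axis, with 1 point per library (filled for left, open for right, shape and color by embryo) and a bar at the mean of 8 libraries. *Crabp1* and *Crabp2* stand above the other genes, and both libraries of embryo L49-3 lie far below the rest for *Rbp4*.

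Within the receptor families, summed RAR levels were 39.1 ± 2.78 RPKM, of which *Rara* made up 44.4%, *Rarg* 28.2% and *Rarb* 27.4% on average. The *Rarb* share averaged 24.7% on the left and 30.1% on the right, and the *Rarg* share 30.6% and 25.8%. Summed RXR levels were 30.5 ± 2.86 RPKM, divided between *Rxra* (51.9%) and *Rxrb* (48.1%). The third RXR gene, *Rxrg*, was not tested, with 1.24 to 6.19 normalized counts per library.

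The comparison of left with right asks which genes differ between the sides of the heart field around the start of looping. Under the threshold of the study, unadjusted p no higher than 0.05 and a fold no smaller than 1.2, 3 of the 9 genes differed, and all 3 (*Crabp2*, *Rarb* and *Stra6*) were lower on the left. Of all genes tested, 3.05% passed this threshold and 1.42% passed it lower on the left. The same 3 genes were the only members with an unadjusted p under 0.05 (edgeR), where 425 of the 9744 genes tested had one. None of the 9 passed after Benjamini-Hochberg adjustment over all genes (edgeR quasi-likelihood test, adjusted p = 0.987 for each). DESeq2 also called none of them after adjustment. The background for the adjusted call was 0.0103%, the single gene *Lefty2*, a target and inhibitor of Nodal signaling named here after its value was seen. No member had the same direction in all 4 embryos, where 12.4% of the genes tested did, and no member had left and right values that did not overlap, where 2.51% of the genes tested did. The log2 fold changes, left minus right, were negative for 6 genes and positive for 3, where 5010 of the 9744 genes tested were negative. Their median was -0.13, against -0.004 over all genes tested. An exact sign-flip test over the embryos cannot give a p below 0.125 with 4 of them and gave 0.25 for *Crabp2*, *Rarb* and *Stra6*, so the p-values here come from the models fitted across all genes. In these bulk samples, fewer cells of a type and less RNA per cell cannot be told apart.

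**Figure D2:**
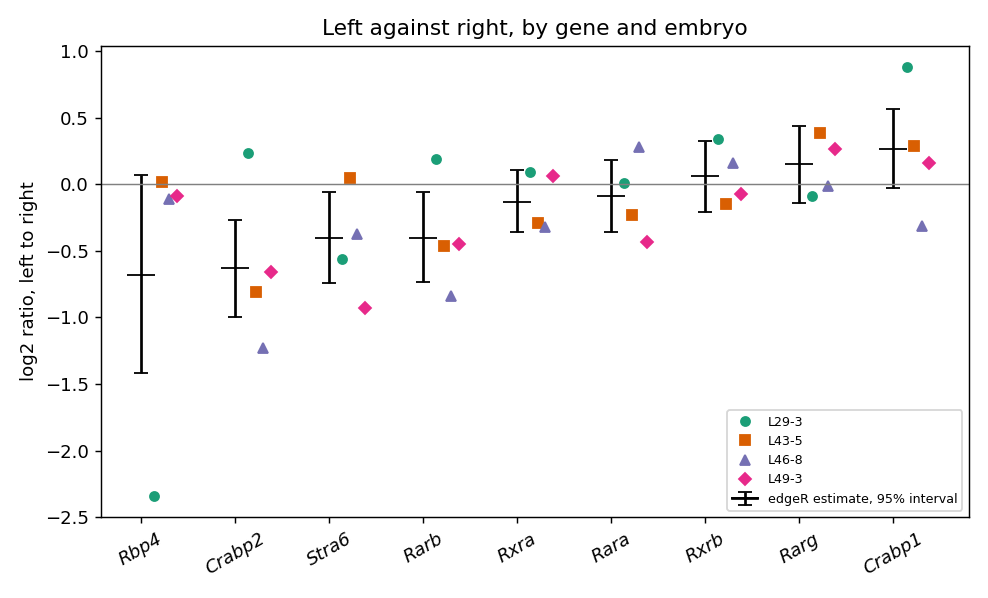
Log2 ratio of left to right for each gene. Black bars give the edgeR estimate with its 95% interval, and colored points the ratio of normalized counts in each of 4 embryos. The intervals of *Crabp2*, *Stra6* and *Rarb* lie below 0, each of these genes has 1 embryo on the other side of 0, and *Rbp4* has a ratio of -2.34 in embryo L29-3 and lies near 0 in the others.

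*Rbp4* (ENSMUSG00000024990, chr19:38116629-38125281, minus strand, GRCm38), the carrier of retinol, was the most uneven of the 9 genes across libraries. Its normalized counts, left then right, were 22.7 against 119 in L29-3, 73.7 against 72.6 in L43-5, 60.2 against 64.7 in L46-8, and 3.10 against 3.32 in L49-3. The sides differed widely in 1 embryo and hardly at all in the other 3, and both libraries of L49-3 held 2 reads each, with exact Poisson intervals of 0.375 to 11.2 and 0.403 to 12 normalized counts that cover counting error only. The left mean was 39.9 ± 32.7 and the right mean 64.9 ± 47.5 (SD, n = 4), and the log2 fold change of -0.68 (SE 0.341) did not pass (edgeR, unadjusted p = 0.0702). It was -0.03 without L29-3 (edgeR, unadjusted p = 0.907), and it passed the threshold of the study at -1.14 without L43-5 (edgeR, unadjusted p = 0.018) and at -0.92 without L46-8 (edgeR, unadjusted p = 0.0361). Its 3 most alike genes over the 8 libraries were *Ctsc* (r = 0.996), *Apoa1* (r = 0.994) and *Ttr* (r = 0.988). Here r is the Pearson correlation of log2 CPM, counts scaled to the library's TMM-adjusted total, and the 8 libraries come from 4 embryos. Genes most alike to a member were picked for the highest r of all tested, so high values follow partly from that choice. Each of the 9 genes had 3 such genes at r of 0.916 or more, and no chance level is given. The r values of *Rbp4* include both libraries of L49-3, with 2 reads each. *Apoa1* encodes an apolipoprotein and *Ttr* the plasma protein that carries RBP4.

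Yolk sac and visceral endoderm markers moved with *Rbp4*. Of 12 listed, 5 were tested, and their log2 fold changes all were negative, from -0.81 to -0.08, where 5010 of 9744 genes tested were negative. Only *Apoa1* passed the threshold of the study (-0.81, edgeR unadjusted p = 0.0483), and this call was lost without L29-3 (-0.12, edgeR unadjusted p = 0.559), without L49-3 (-0.79, edgeR unadjusted p = 0.0671), with DESeq2 (-1.0, unadjusted p = 0.155), with limma-voom (-0.61, unadjusted p = 0.0939), with scaling by library size alone (-0.79, edgeR unadjusted p = 0.0509) and without the embryo block (-0.68, edgeR unadjusted p = 0.337). Without L43-5 it was -1.43 (edgeR, unadjusted p = 0.00592). The summed level of the 12 genes (left against right) was 208 against 1160 in L29-3, 1050 against 728 in L43-5, 744 against 825 in L46-8, and 37.2 against 38.2 in L49-3. The low left library of L29-3 and the pair of L49-3 were thus low for the list as for *Rbp4*. In L49-3 *Afp* had no reads on either side, *Cubn* had 3.10 normalized counts (left) and 0 (right), and *Ttr* had 3.10 and 3.32. Whether remnants of yolk sac endoderm in the dissected pieces had a part in the *Rbp4* values was not tested.

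**Figure D3:**
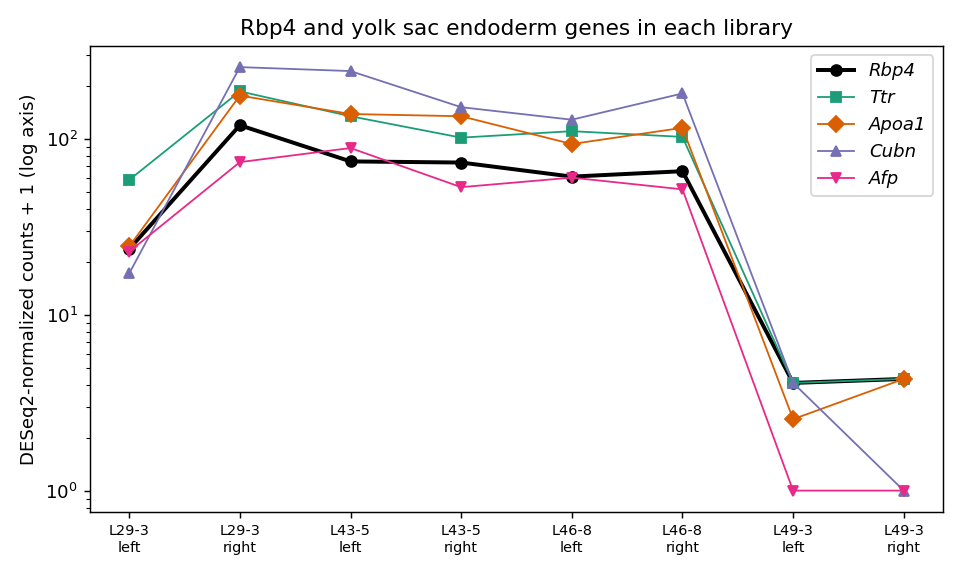
Normalized counts plus 1, on a log axis, of *Rbp4* and the yolk sac endoderm genes *Ttr*, *Apoa1*, *Cubn* and *Afp* in each of 8 libraries, ordered by embryo and side. All 5 are low in the left library of L29-3 and lowest in both libraries of L49-3, where *Rbp4* has 3.10 and 3.32 normalized counts.

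*Stra6* (ENSMUSG00000032327, chr9:58063788-58153996, plus strand), the cell surface receptor that takes up retinol from RBP4, had its lower value on the left in 3 of 4 embryos. Left and right values were 68.9 against 103 in L29-3, 99.1 against 95.5 in L43-5, 83.8 against 108 in L46-8, and 75.9 against 145 in L49-3. The largest gap was in L49-3, and the left library of L43-5 lay within the range of the right libraries. The means were 81.9 ± 13.0 on the left and 113 ± 21.9 on the right, a 1.32-fold difference (log2 -0.40, SE 0.156, 95% interval -0.74 to -0.06, edgeR unadjusted p = 0.0241). The difference no longer passed without L29-3 (-0.35, edgeR unadjusted p = 0.0815) or without L49-3 (-0.26, edgeR unadjusted p = 0.118), nor with DESeq2 (-0.43, unadjusted p = 0.06). *Stra6* did not follow its ligand gene, with r = -0.0653 to *Rbp4* over the 8 libraries. This r includes both libraries of L49-3, where *Rbp4* had 2 reads each. The genes most alike were *Abl2* (r = 0.959), *Dctn5* (r = 0.955) and *Pepd* (r = 0.948).

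*Crabp2* (ENSMUSG00000004885, chr3:87948666-87953376, plus strand), which carries retinoic acid to its nuclear receptors, had the smallest p between sides among the 9 genes. Its normalized counts, left then right, were 225 against 192 in L29-3, 232 against 408 in L43-5, 138 against 322 in L46-8, and 333 against 522 in L49-3. The right library was the higher in 3 embryos and slightly the lower in L29-3, and the ranges of the sides overlapped. The means were 232 ± 79.9 on the left and 361 ± 139 on the right, from 155 to 765 reads per library, a 1.55-fold difference (log2 -0.63, SE 0.167, 95% interval -1.0 to -0.27, edgeR unadjusted p = 0.00257, adjusted p = 0.987). It passed the threshold of the study in 11 of 11 alternatives, with log2 fold changes from -0.89 without L29-3 to -0.46 without L46-8. Its adjusted p was 1.72e-07 without a filter on low values (edgeR), where 34 of 23873 genes were called against 1 in the main fit. Without L29-3, the embryo that went the other way, the adjusted p was 0.0299 (edgeR). In the other alternatives it was at least 0.93 (edgeR, DESeq2 or limma-voom). Leaving out an opposing embryo favors a smaller p, so the value without L29-3 adds no support of its own.

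*Crabp1* (ENSMUSG00000032291, chr9:54764748-54773110, plus strand), the other carrier of retinoic acid, had higher values on the left in 3 of 4 embryos and did not pass the test. Its values were 616 against 337 in L29-3, 407 against 333 in L43-5, 243 against 301 in L46-8, and 596 against 530 in L49-3. The largest gap was in L29-3 and the opposite direction in L46-8. The means were 466 ± 176 on the left and 375 ± 105 on the right (log2 0.27, SE 0.138, 95% interval -0.03 to 0.57, edgeR unadjusted p = 0.0716). It passed the threshold of the study with limma-voom (0.30, unadjusted p = 0.044) and without a filter on low values (0.29, edgeR unadjusted p = 0.000657). Without L46-8 the log2 fold change was 0.44 (edgeR, unadjusted p = 0.0026) and passed the threshold of the study, and without L29-3 it was 0.07 (edgeR, unadjusted p = 0.569). *Crabp1* was most alike to *Fgf3*, a fibroblast growth factor (r = 0.964), *Mgat3* (r = 0.952) and *Rb1* (r = 0.946), and not to *Crabp2* (r = 0.446).

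**Figure D4:**
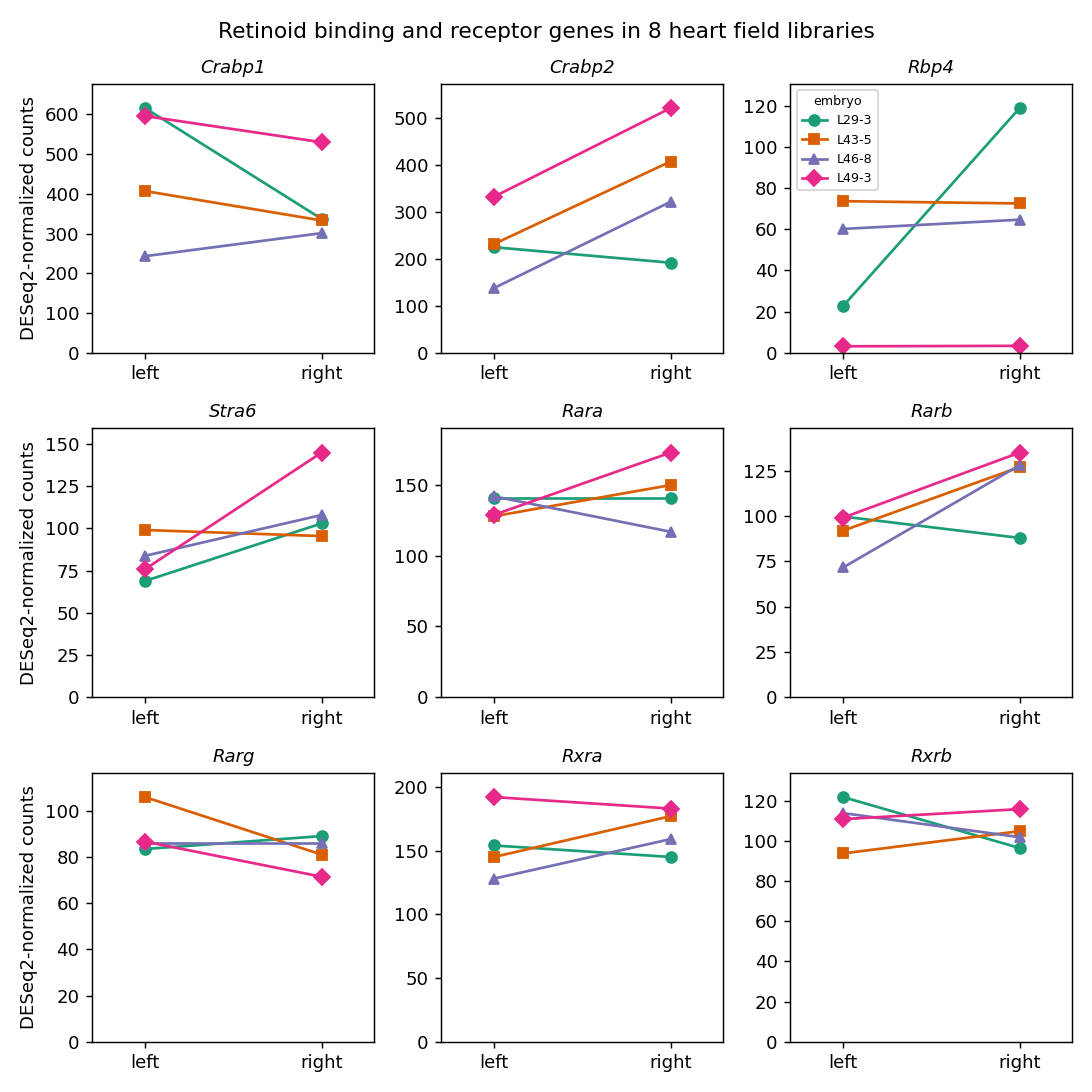
Normalized counts of each of the 9 genes on the left and right, with a line joining the sides of each of 4 embryos and every axis starting at 0. *Crabp2* is higher on the right in 3 embryos and lower in L29-3, and *Rbp4* lies near 0 on both sides of L49-3.

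*Rarb* (ENSMUSG00000017491, chr14:16430839-16819156, minus strand), the receptor gene with the direct repeat printed above, had its lower value on the left in 3 of 4 embryos. Left and right values were 99.7 against 87.9 in L29-3, 91.9 against 127 in L43-5, 71.6 against 128 in L46-8, and 99.1 against 135 in L49-3. As for *Crabp2*, embryo L29-3 went the other way, and its right library was the only one within the range of the left. The means were 90.6 ± 13.1 on the left and 119 ± 21.3 on the right, a 1.32-fold difference (log2 -0.40, SE 0.153, 95% interval -0.73 to -0.06, edgeR unadjusted p = 0.0233). It was -0.58 without L29-3 (edgeR, unadjusted p = 0.00198) and lost the threshold without L43-5 (-0.37, edgeR unadjusted p = 0.0863), without L46-8 (-0.26, edgeR unadjusted p = 0.134), without L49-3 (-0.38, edgeR unadjusted p = 0.0564) and with DESeq2 (unadjusted p = 0.0771). The *Rarb* annotation shares 1793 exon bases with *Top2b*, a DNA topoisomerase gene on the opposite strand, and 227 with an antisense gene, *Gm48162*. How the counting used the strand is not given in the sources used here, so reads from the shared bases may belong to either gene. *Top2b* stood at 403 ± 10.4 on the left and 451 ± 23.7 on the right and had the lower value on the left in each embryo (log2 -0.16, SE 0.0667, edgeR unadjusted p = 0.0322), a fold under that threshold. The part of *Top2b* reads in the *Rarb* difference was not tested.

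The other 2 RAR genes did not pass the test. *Rara* (ENSMUSG00000037992, chr11:98927818-98974942, plus strand), the most abundant RAR here, had values of 141 against 141 in L29-3, 128 against 150 in L43-5, 142 against 117 in L46-8, and 129 against 173 in L49-3, with a log2 fold change of -0.09 (SE 0.123, 95% interval -0.36 to 0.18, edgeR unadjusted p = 0.465). *Rarg* (ENSMUSG00000001288, chr15:102234938-102257517, minus strand) ranged from 83.5 to 106 on the left and from 71.5 to 89.1 on the right, with a log2 fold change of 0.15 (SE 0.134, 95% interval -0.14 to 0.44, edgeR unadjusted p = 0.284). The intervals held log2 differences down to -0.36 for *Rara* and up to 0.44 for *Rarg*, so neither was shown to be equal between sides. *Rara* was most alike to *Rnf25* (r = 0.976), *Slx1b* (r = 0.954) and *Spsb4* (r = 0.944), *Rarb* to *ccdc198* (r = 0.969), *Wdr81* (r = 0.955) and *Mrpl40* (r = 0.949), and *Rarg* to *Brk1* (r = 0.962), *Ppp4r3b* (r = 0.94) and *Emc1* (r = 0.928).

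The RXR genes, whose products pair with the RARs and with several other nuclear receptors, did not pass the test either. *Rxra* (ENSMUSG00000015846, chr2:27676440-27762957, plus strand) had 154 against 145 normalized counts in L29-3, 145 against 177 in L43-5, 128 against 159 in L46-8, and 192 against 183 in L49-3 (log2 -0.13, SE 0.108, 95% interval -0.36 to 0.11, edgeR unadjusted p = 0.264). *Rxrb* (ENSMUSG00000039656, chr17:34031812-34038399, plus strand) ranged from 93.9 to 122 on the left and from 96.6 to 116 on the right, with a log2 fold change of 0.06 (SE 0.124, 95% interval -0.21 to 0.33, edgeR unadjusted p = 0.627) that turned to -0.03 without L29-3. *Rxra* followed *Crabp2* across the 8 libraries (r = 0.903), as did *Rarb* (r = 0.93), while *Rxrb* did not (r = 0.14). Genes most alike to *Rxra* were *Rgma* (r = 0.958), *Cacybp* (r = 0.951) and *Sms* (r = 0.949), and those most alike to *Rxrb* were *Mapk1ip1* (r = 0.932), *B4galnt4* (r = 0.924) and *Zfp692* (r = 0.916).

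Some neural tube markers varied across embryos as *Crabp2* and *Rarb* did. Of all tested genes *Crabp2* was most alike to *Pax6* (r = 0.981), a neural transcription factor, followed by *Elovl2* (r = 0.973) and *Ptprz1* (r = 0.964). These 3 were picked for the highest r of all tested genes, as for every member. Of 12 neural tube markers listed, 7 were tested, and all 7 had negative log2 fold changes from -0.98 to -0.08, with a median of -0.28. Over all genes tested, 5010 of 9744 were negative. *Sox1* (-0.98, SE 0.353, edgeR unadjusted p = 0.0167) and *Pax6* (-0.83, SE 0.289, edgeR unadjusted p = 0.0142) passed the threshold of the study. *Sox1*, *Sox3* and *Pax6*, 3 of the 7, were higher on the left in L29-3 and lower on the left in the other 3 embryos, the order seen for *Crabp2* and *Rarb*, and 4 were not. *Nkx6-1* was lower on the left in L29-3 and higher in L43-5, *Rfx4* was slightly higher on the left in L43-5 (log2 ratio 0.03), and *Sox2* and *Pax3* were higher on the left in L49-3 (0.35 and 1.84). The order of *Crabp2* and *Rarb* was not particular to neural genes. It was also seen in *Meox1*, *Meis2*, *Fabp5* and *Tshz1*, of other lists, and its share over all genes tested is not given. *Pax6* did not pass without L43-5 (-0.61, edgeR unadjusted p = 0.105), without L46-8 (-0.59, edgeR unadjusted p = 0.0616) or with DESeq2 (-0.80, unadjusted p = 0.129). It was -1.26 without L29-3, the embryo with the opposite direction (edgeR, adjusted p = 0.047, against 0.987 with all 4 embryos). *Sox1* did not pass without L49-3 (-1.0, edgeR unadjusted p = 0.0525), with DESeq2 (-1.19, unadjusted p = 0.0953) or without the embryo block (-0.97, edgeR unadjusted p = 0.0876), and it was -0.57 without L46-8 (edgeR, unadjusted p = 0.0256). The summed level of the 12 markers (left against right) was 428 against 302 in L29-3, 293 against 493 in L43-5, 164 against 468 in L46-8, and 672 against 814 in L49-3. The part that a varying amount of neural tissue had in the differences of *Crabp2*, *Rarb* and *Rxra* was not tested.

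**Figure D5:**
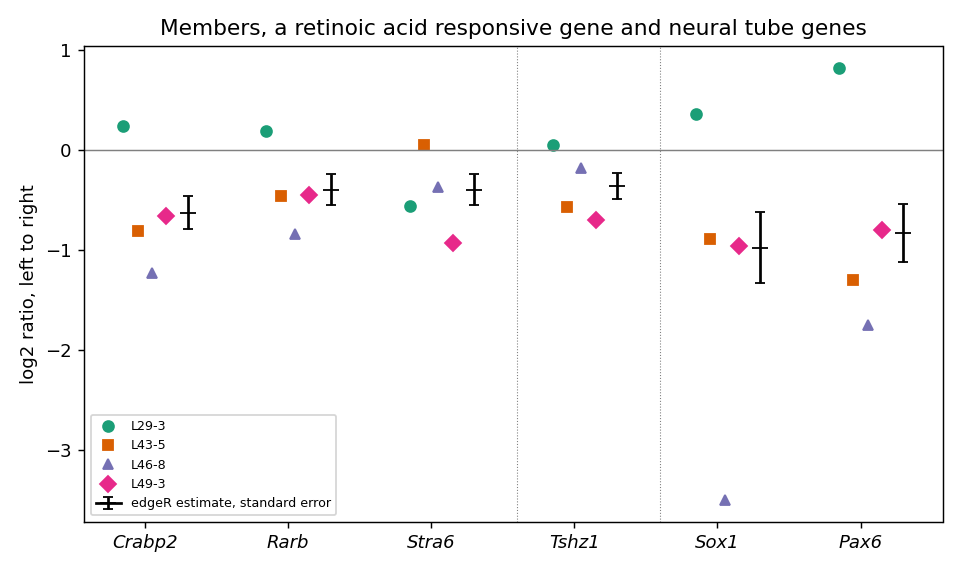
Log2 ratio of left to right in each of 4 embryos (colored points) with the edgeR estimate and its standard error (black) for *Crabp2*, *Rarb* and *Stra6*, for *Tshz1* from the list of genes responsive to retinoic acid, and for the neural tube genes *Sox1* and *Pax6*. In embryo L29-3 *Crabp2*, *Rarb*, *Tshz1*, *Sox1* and *Pax6* all lie above 0, and *Stra6* lies below 0.

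Among genes known to respond to retinoic acid, 13 of 19 listed were tested. *Tshz1*, a zinc finger gene, passed the threshold of the study and had its lower value on the left in 3 of 4 embryos, with 125 against 121 normalized counts in L29-3, 109 against 162 in L43-5, 121 against 137 in L46-8, and 122 against 198 in L49-3. The ranges of the sides overlapped only through the right library of L29-3. The log2 fold change was -0.36 (SE 0.131, edgeR unadjusted p = 0.0185, adjusted p = 0.987), and it did not pass without L43-5 (edgeR, unadjusted p = 0.119), without L49-3 (edgeR, unadjusted p = 0.0933) or with DESeq2 (unadjusted p = 0.0708). The median log2 fold change of the 13 genes was -0.04, with 8 negative and 5 positive.

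Enzymes that make and break down retinoic acid were detected beside the receptors. *Aldh1a2*, the main retinoic acid synthase of the early embryo, stood at 52.1 ± 17.5 RPKM over the 8 libraries and did not pass between sides (log2 -0.05, SE 0.119, edgeR unadjusted p = 0.709). *Rdh10*, which makes retinaldehyde, stood at 12.3 ± 1.95 RPKM. Of 12 enzyme genes listed, 6 were tested and only *Cyp26c1*, which degrades retinoic acid, passed, higher on the left in 3 of 4 embryos (log2 1.35, SE 0.372, edgeR unadjusted p = 0.00354, adjusted p = 0.987). The difference depended on single embryos in size. It was 0.90 without L49-3 (edgeR, unadjusted p = 0.0133), whose own log2 ratio was 3.55. Without L46-8, the embryo with the opposite direction, the difference was 1.97 (edgeR, adjusted p = 0.0388), and leaving out an opposing embryo favors a smaller p. *Adh1* and *Adh7* had no reads in any library.

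Of 11 other genes of retinoid binding and transport, 4 were tested and none passed. *Fabp5*, a lipid carrier that can also bind retinoic acid, stood at 34.1 ± 4.96 RPKM, and *Lrp2*, an endocytic receptor, had the highest count of the list at 253 ± 30.9. *Rbp3* and *Rbp7* had no reads in any library. None of 15 nuclear receptor coregulators tested of 16 listed and none of 13 other nuclear receptors of 21 passed the threshold of the study, with median log2 fold changes of 0.05 and -0.01. The most highly counted of each were *Tbl1x* and *Nr6a1*.

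Of the marker lists of neighbouring tissues not yet given, none had a gene past the threshold of the study. These were second heart field (11 tested of 11, highest *Mef2c*), foregut endoderm (11 of 12, *Krt18*), cranial neural crest (6 of 12, *Twist1*), surface ectoderm (4 of 10, *Krt8*), cardiomyocytes (10 of 10, *Actc1*), endothelium (9 of 10, *Kdr*), paraxial mesoderm (4 of 10, *Meox1*) and primitive blood (1 of 10, *Tal1*). The log2 fold changes were negative for 10 of 10 cardiomyocyte genes, with a median of -0.25, and for 4 of 4 paraxial genes, with a median of -0.22. Over all genes tested, 5010 of 9744 were negative. Genes of a list come from the same libraries and can move together, so they are not separate observations. The summed cardiomyocyte level was 856 on the left of L49-3 against 2760 on its right, and 4410 against 2390 in L46-8, so the larger side was not the same. *Mesp2* of the paraxial list had no reads.

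Embryos of 1 stage can differ from each other as well as between sides, and this was compared over the 4 pairs. Each embryo gave only its left and right library, so embryo, exact stage, dissection and library cannot be told apart. None of the 9 genes passed after adjustment (edgeR, adjusted p from 0.121 to 0.942), where 0.174% of the genes tested passed, 17 genes among them *Tbx5* and the cardiac myosin gene *Myh6*. At an unadjusted p under 0.05 there were 3, *Crabp1*, *Crabp2* and *Rbp4*, against 9.99% of all genes tested. The means of both sides for *Rbp4* were 70.8, 73.1 against 62.5 in L29-3, L43-5 and L46-8 against 3.21 in L49-3 (edgeR, unadjusted p = 0.000994, adjusted p = 0.121). *Crabp1* ran the other way, highest in L49-3 at 563 and lowest in L46-8 at 272 (edgeR, unadjusted p = 0.00125, adjusted p = 0.136). *Crabp2* was also highest in L49-3, at 427, and lowest in L29-3, at 209 (edgeR, unadjusted p = 0.00462, adjusted p = 0.206). The receptors and *Stra6* differed by at most 1.31-fold between the highest and lowest embryo, with unadjusted p from 0.124 to 0.769 (edgeR). *Crabp1*, *Crabp2* and *Rbp4* passed after adjustment without L29-3 (edgeR, adjusted p = 0.0212, 0.0332 and 0.00161), where 46 of 9818 genes passed. *Rbp4* also passed without L46-8 (edgeR, adjusted p = 0.0198), where 237 of 9803 genes passed. With a DESeq2 likelihood ratio test *Crabp1* (adjusted p = 0.0121) and *Rbp4* (adjusted p = 0.036) were among 48 of 9744 genes that passed.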

How the data were processed

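The deposited values are raw read counts per gene. To make them, the authors used Hisat2 on GRCm38, removed duplicates and ran featureCounts. The tool versions and strand setting are not given in the sources used here. Every per-library column was used. Symbols were matched from the GENCODE annotation of GRCm38 for 48144 of 48526 identifiers. The members and lists were chosen with earlier results of these data known.

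Genes with at least 20 DESeq2-normalized counts in at least 4 of 8 libraries were kept, 9744 in all. Counts were tested with edgeR 4.0.16 in R 4.3.3 (quasi-likelihood, TMM, embryo as a block, as the study paired sides), with Benjamini-Hochberg adjustment, against the threshold of the study (fold at least 1.2, p at most 0.05). The same model tested the embryo terms. Tests between sides are two-sided, over 4 embryos. Pairing comes from the shared animal. Deviations of the 2 sides of an embryo from their side means correlated at 0.167, 0.187, -0.0221 and 0.431 in L29-3, L43-5, L46-8 and L49-3, and between embryos from -0.388 to 0.253. Alternatives were DESeq2 1.42.0 and limma-voom (limma 3.58.1), other scalings and filters, no block, and each embryo left out. RPKM used TMM-scaled CPM over all exon bases of a gene. Log2 ratios of single embryos used TMM-scaled CPM plus 0.5. Named genes were the 9 members, the genes of each list past the threshold or else the highest counted, the 3 genes most alike to each member (log2 of CPM plus 0.5), and listed genes at 0. Enzymes and binding genes outside this rule were named after their values were seen, and some listed genes are not reported here. On simulated counts for 9744 genes edgeR recovered 99% of 200 changed genes between sides and 98.5% between embryos. Recovery of differences as small as those of the members, with the spread seen between these embryos, was not tested. Poisson intervals cover counting error only.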

Additional observations from a re-analysis of the deposited data

Results flagged for a closer look

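In 27 groups of 4 values (each member's left values, right values and log2 ratios), 4 held a value far from the other 3 by Dixon's criterion at the 95% level, where chance marks about 1 in 20 groups. *Crabp1* on the right was 530 normalized counts in L49-3, against 301 to 337 in the other right libraries. The log2 ratio of left to right for *Rbp4* was -2.34 in L29-3, against -0.11 to 0.02 in the other embryos. *Rarb* on the right was 87.9 normalized counts in L29-3, against 127 to 135 elsewhere on the right. *Rarg* on the left was 106 normalized counts in L43-5, against 83.5 to 86.7 in the other left libraries.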

How the results depend on the processing

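Of 98 refits of a member's log2 fold change over the alternatives, 84 kept direction and side of the threshold, 6 passed where the main result did not, 7 lost it and 1 reversed (*Rxrb*, -0.03 without L29-3, and up to 0.16 without L43-5). Members past the threshold of the study numbered 3, and 1 with DESeq2, 4 with limma-voom, 5 without a filter, and 1 to 4 when each embryo was left out, 1 without L49-3. Genes past that threshold numbered 297, and 59 with DESeq2 and 687 without a filter. Genes called after adjustment numbered 1, and 2 with DESeq2, 0 with at least 10 counts in every library, 34 without a filter, and 1 to 5 with embryos left out. Without the replicate block of paired sides 0 genes were called after adjustment and 3 members still passed the threshold of the study. Between embryos, 17 genes were called, and 48 with the DESeq2 likelihood ratio test, 9 with at least 10 counts in every library, 641 without a filter, and 0 to 237 with embryos left out, 0 without L49-3 and 237 without L46-8. Members called between embryos numbered 0, and 2 with the likelihood ratio test, 3 without a filter and 0 to 3 with embryos left out. *Rbp4* was not tested with at least 10 counts in every library. The causes of these changes were not tested. With 2 reads per library in L49-3 the *Rbp4* level there is known only within its counting interval.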

Other observations

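*Crabp1* and *Crabp2*, whose products bind the same ligand, were also compared as a ratio. This comparison was chosen after the values were seen. The per-length level of *Crabp1* divided by that of *Crabp2* (left against right) was 4.51 against 2.89 in L29-3, 2.89 against 1.34 in L43-5, 2.92 against 1.54 in L46-8, and 2.95 against 1.67 in L49-3. In 4 of 4 embryos the left ratio was the higher, by 1.56-fold to 2.14-fold, with a mean difference of 0.87 ± 0.193 on the log2 scale (SD, n = 4). Because the ratio was picked for this order, it is given as a description without a test. Neither gene alone had the same direction in all 4 embryos. As shares of their summed level, *Crabp1* made up 76.3% on the left and 63.7% on the right.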
